A study of Mus musculus with 2 samples.

Results

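The question was which messenger RNAs of the tubulin cytoskeleton came down with Mov10 in the newborn brain. The peaks of an RNA immunoprecipitation (RIP) were read over 7 genes: Map2, Mapt, Stmn4, Atat1, Crmp1, Tubb3 and Tubb5. Mov10 is an RNA helicase. RNA that came down with a Mov10 antibody (Mov10 IP) was set against input RNA. Both were made from brains of 28 pooled wild-type C57bl/6 pups at postnatal day 2, without UV cross-linking. The lysate first passed an immunoprecipitation with an irrelevant antibody. A library was also made from that immunoprecipitation, and the study left it out, calling its contribution negligible. The ratios here therefore hold no control for RNA that comes down without Mov10. There was 1 library per group, so no difference below has a replicate check, and the pooled pups do not give separate values. The peak list was made by the authors, and it carries the reads of each peak in both libraries.

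A peak was taken for a gene when it shared at least 1 base with an exon of that gene on the strand opposite to the one listed for the peak, whatever its adjusted p. This gave 14 peaks over the 7 genes, of 2296 peaks in the list analysed here. That list is shorter than the number of peaks the study states, so every share, and every gene named as lacking a peak, holds for this list alone. The wider set used for comparison was the 657 peaks placed in the same way over exons of 449 protein-coding genes on the nuclear chromosomes. The genes were chosen by their having such peaks, so enrichment of the members over input is a description and not a finding. No cut-off on reads or on the ratio was used, and genes whose reads fell short of a called peak have no value here.

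Microtubules are polymers of alpha and beta tubulin, and growing axons and dendrites are built on them. Structural microtubule-associated proteins such as MAP2, which marks dendrites, and tau, the product of Mapt, which is enriched in axons, bind along the lattice and stabilise it. Stathmins bind free tubulin dimers and favour disassembly, collapsin response mediator proteins (CRMPs) carry guidance signals to the cytoskeleton, and Atat1 acetylates alpha tubulin inside the polymer. Tubb3 is the beta tubulin typical of neurons, and Tubb5 is a broadly expressed beta tubulin.

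The enrichment ratio of a peak is its share of all aligned Mov10 IP reads over its share of all aligned input reads. Exact 95% intervals are given for the ratios; they cover counting error only, and set these libraries side by side rather than conditions. Medians over peaks carry 0.5 added to both counts. Of the 14 peaks, all 14 had an interval above 1, where the share over the 657 peaks was 99.8%. At the peak caller's adjusted p of 0.05, 10 of the 14 passed, where the share was 89.8%. Both rates describe how peaks were listed, and neither sets the 7 genes apart. The median ratio of the 14 peaks was 12.3 (95% interval from order statistics 8.45 to 51.8), and that of the 657 peaks was 14.5 (13.6 to 15.4). Both of these intervals treat peaks as independent draws and do not cover counting error. The 14 peaks come from 7 chosen genes in 1 pair of libraries, so their interval describes spread over peaks only. Of 12 neuronal markers, 6 had a passing exonic peak (Snap25, Syt1, Nefl, Nefm, and the members Tubb3 and Map2), where 1.83% of 21911 protein-coding genes did. Of 6 liver and blood markers, 0 did. Tubb3 and Map2 had been chosen for their peaks, and a marker on a chromosome strand without a passing peak could not count. The tissue is therefore described by these counts rather than checked.

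Stmn4 and Atat1 were the most enriched of the 7 genes, and Tubb3 and Tubb5 had the lowest summed ratios. With reads summed over the peaks of a gene, Stmn4 stood at 93.5 (72.8 to 122) and Atat1 at 52.0 (42.8 to 63.8). Map2 had a summed ratio of 14.1 (13.2 to 15.0), Mapt of 12.9 (11.9 to 14.0) and Crmp1 of 12.8 (11.97 to 13.79). The summed ratio was 6.69 (6.30 to 7.12) for Tubb3 and 6.34 (5.93 to 6.78) for Tubb5. A sum hides the spread between the peaks of a gene: the Map2 peaks stood at 8.46 and 18.0, both outside the interval of the Map2 sum, and the interval of the lower one overlapped that of Tubb3 peak 1. At peak level, the intervals of the Stmn4 and Atat1 peaks lay above those of all peaks of the other 5 genes.

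**Figure D1:**
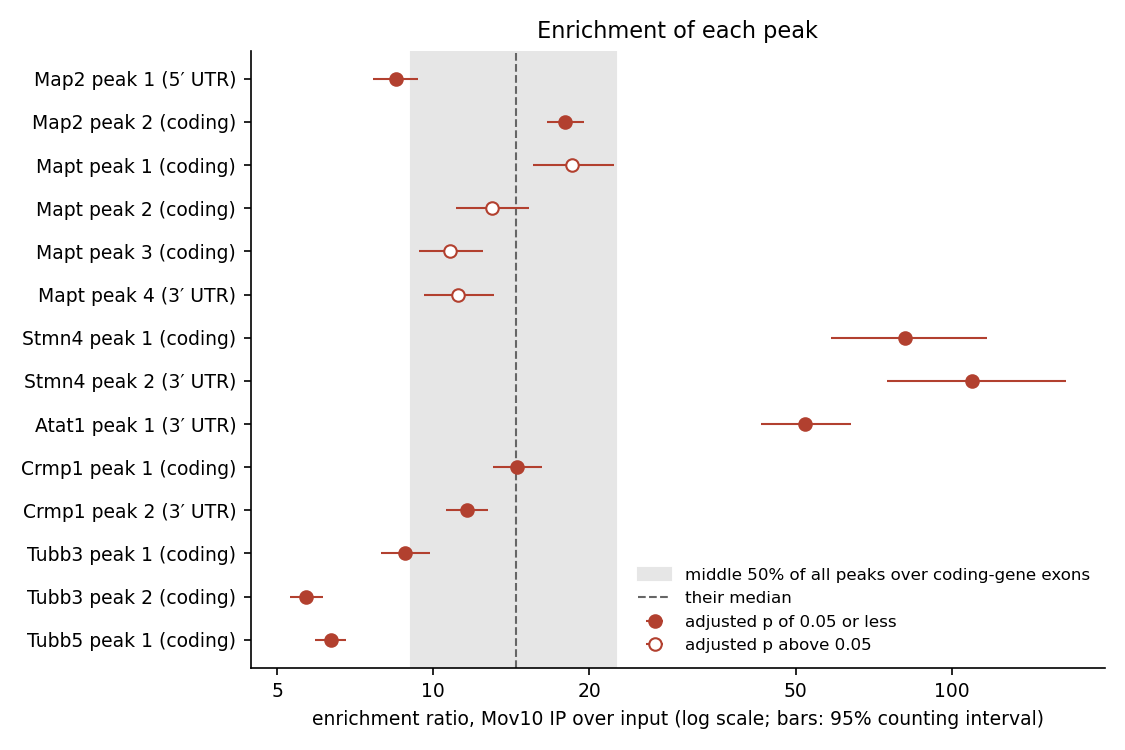
Enrichment ratio (Mov10 IP over input, log axis) of each of the 14 peaks, with 95% counting intervals; the grey band holds the middle 50% of the 657 peaks over coding-gene exons and the dashed line is their median, 14.5. The 2 Stmn4 peaks and the Atat1 peak lie above the band. All 3 beta tubulin peaks and the Map2 5′ UTR peak, at 8.46, lie below its lower edge. The 4 open circles are the Mapt peaks, which did not pass the adjusted p.

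The spread of the ratios among the 14 peaks went with the input reads more than with the IP reads. Per 1000 bases of peak, the IP reads ran from 12145 to 36244, a 2.98-fold range, while the input reads ran from 120 to 4766, a 39.7-fold range. Peak length here includes bases outside exons. Mapt peak 1 had 80 exonic bases of 200, and the Map2 coding peak 600 of 600. Ranges per exonic base were not computed and would differ. Across the 14 peaks, the log2 ratio had a Pearson correlation of -0.94 with log2 input reads per 1000 bases and of -0.24 with log2 IP reads per 1000 bases. The same correlations over the 657 peaks were -0.69 and 0.22. These are descriptions, since the input count enters the ratio itself, all points come from the same pair of libraries, and peaks of 1 gene are not independent. On the strands that hold members, the lowest listed peak had 10960 (Mapt) to 26585 (Atat1 and Tubb5) IP reads per 1000 bases. The listing thus bounded the IP reads from below, and how far these floors set the contrast with the input was not tested. In IP reads per 1000 bases, the 14 peaks ranked above 72.9% to 98.9% of the 657. The floors all exceed the median of the 657, 7922, so any listed peak on these strands would rank in the upper part.

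**Figure D2:**
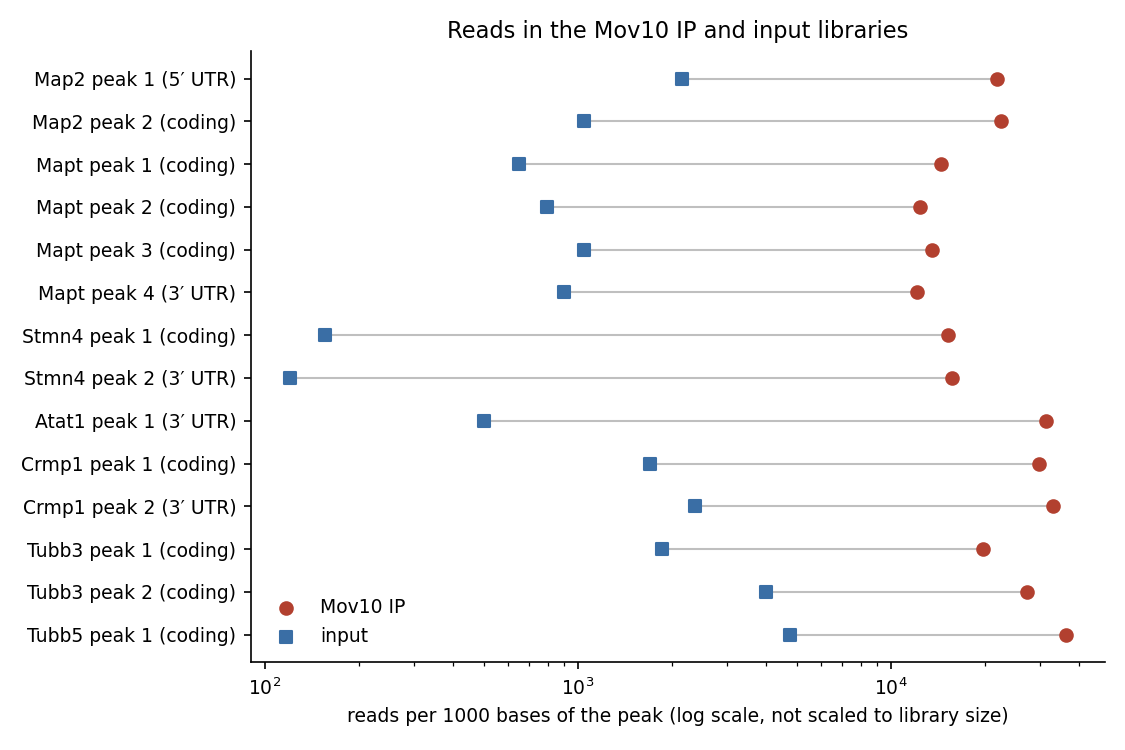
Reads per 1000 bases of peak (log axis, not scaled to library size) in the Mov10 IP (circles) and in the input (squares) for the 14 peaks. The IP values lie within a 2.98-fold range, and the input values spread over 39.7-fold, lowest for Stmn4 and highest for Tubb5.

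**Figure D3:**
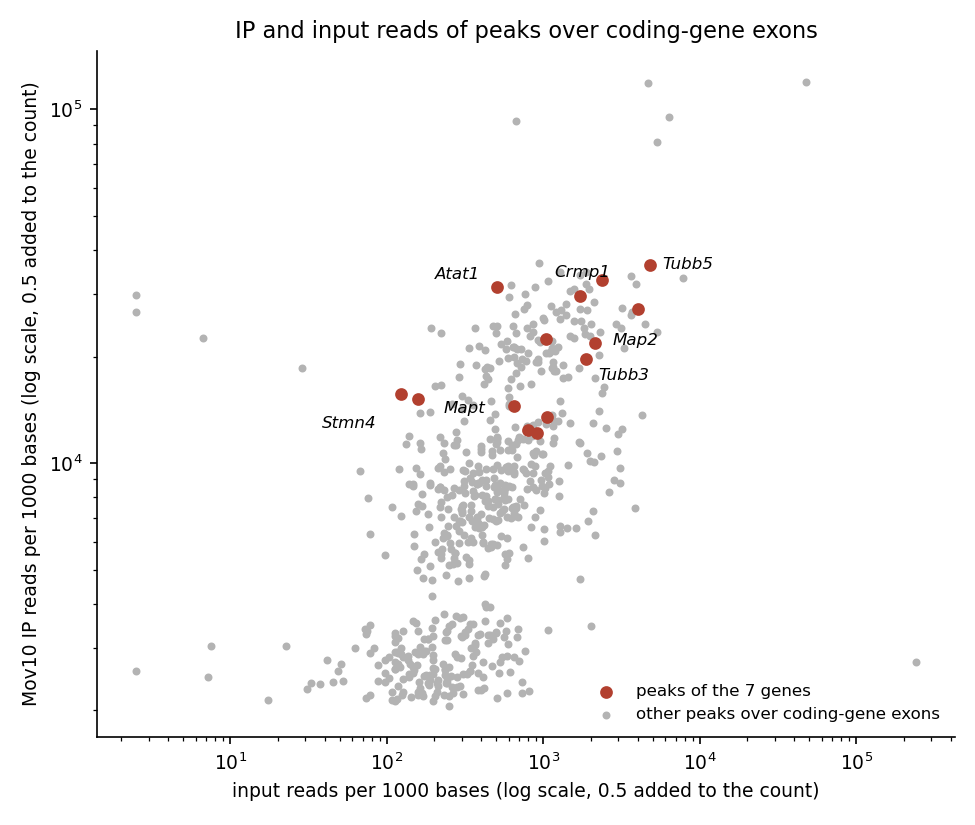
Mov10 IP reads (vertical) against input reads (horizontal) per 1000 bases for the 657 peaks over coding-gene exons, on log axes with 0.5 added to each count; red points are the 14 peaks of the 7 genes, and 1 of each gene's peaks is named. The 14 lie in the upper part of the IP range, as does every listed peak on their chromosome strands, with Stmn4 toward low input and Tubb5 toward high input.

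Map2 carried the longest peak of the 14. It lay at chr1:66413001-66413600 (mm10), with 13487 reads in the Mov10 IP and 626 in the input, a ratio of 18.0 (16.6 to 19.5). All 600 bases were coding sequence of exon 7 of 15, an exon of 3741 bases. Of 7 Map2 coding transcripts in the basic GENCODE set, 1 contains this exon. Its coding sequence is 5484 bases long, against 1398 to 1494 bases in the other transcripts. As background, this exon is part of high-molecular-weight MAP2 and is skipped in the short MAP2 forms. The other Map2 peak lay at chr1:66322001-66322200 and had 4365 reads in the Mov10 IP and 430 in the input, a ratio of 8.46 (7.66 to 9.36). Of its 200 bases, 142 were the 5′ UTR in exon 1 of the same transcript and of none of the other 6, and the rest lay outside exons. Per 1000 bases the IP reads of the 5′ UTR peak were 0.971 times those of the exon 7 peak, while the input reads were 2.06 times those. The ratio of the 5′ UTR peak was therefore 0.471 times that of the exon 7 peak (95% interval 0.414 to 0.537). The first 150 coding bases of the exon 7 peak, shown because among the basic coding transcripts only the one with the long exon holds them, and lying at chr1:66413001-66413150 on the plus strand, were, with no base singled out:
Map2: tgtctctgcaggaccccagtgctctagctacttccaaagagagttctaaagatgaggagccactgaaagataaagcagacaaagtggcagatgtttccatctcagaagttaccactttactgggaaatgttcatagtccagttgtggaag

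Mapt, which encodes tau, had 4 peaks along its mRNA. In the order of the transcript, peak 1 (chr11:104282401-104282600) had 2892 reads in the Mov10 IP and 130 in the input, a ratio of 18.5 (15.6 to 22.3). Of its 200 bases, 80 were coding bases of exon 2, at the amino end of tau, and the rest lay outside the exons of this transcript. Peak 2 (chr11:104306601-104306800) had 2474 IP reads and 159 input reads, a ratio of 13.0 (11.0 to 15.3), over 133 coding bases of exon 5, in the proline-rich region. Peak 3 (chr11:104310401-104310600) had 2706 IP reads and 209 input reads, a ratio of 10.8 (9.37 to 12.5). Its 134 coding bases, in exon 6, run into the first microtubule-binding repeat. Peak 4 (chr11:104328601-104328800) lay wholly in the 3′ UTR in exon 10 of 10, an end that 1 of the 4 basic coding transcripts has, whereas peaks 1 to 3 touched exons of all 4. It had 2429 IP reads and 181 input reads, a ratio of 11.2 (9.62 to 13.1). Peak 1 exceeded peak 2 by 1.43-fold (1.12 to 1.83), peak 3 by 1.72-fold (1.365 to 2.169) and peak 4 by 1.66-fold (1.31 to 2.11). The intervals for the 3 pairs among peaks 2, 3 and 4 all included 1, so no difference among those could be seen at this depth. The exonic part of peak 3, shown because it reaches the tubulin-binding repeat of tau and lies at chr11:104310401-104310534 on the plus strand, was, with no base singled out:
Mapt: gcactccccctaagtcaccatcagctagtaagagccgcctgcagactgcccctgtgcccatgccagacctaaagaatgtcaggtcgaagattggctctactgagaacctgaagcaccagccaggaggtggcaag

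All 4 Mapt peaks had an adjusted p of 1, and they were the 4 members that did not pass. Their ratios lay within the range of the members that did. The peak caller had been run separately for each strand. All 14 peaks of the chromosome 11 minus strand, on which the Mapt peaks are listed, had an adjusted p of 1. The 12 of them over coding-gene exons all had an interval above 1, with ratios of 10.8 to 24.2. In all 14, the caller's log odds score for the IP was the negative of its score for the input, to within 1e-06. On the strands of the other members this held for 0 peaks. What an adjusted p of 1 means for Mapt is thus uncertain, and whether the caller exchanged the IP and input states on this strand was not tested. On the strands that hold the other members, every listed peak passed: 21 of 21 for Map2, 11 of 11 for Stmn4, 19 of 19 for Atat1 and Tubb5, 11 of 11 for Crmp1 and 24 of 24 for Tubb3. Over the whole list, 66 of the 67 coding-gene peaks that did not pass lay on a chromosome strand where no peak passed. What set these strands apart was not tested.

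Stmn4 had the highest ratios of the 14, at both of its peaks. The peak at chr14:66361501-66361725 had 3536 reads in the Mov10 IP and 27 in the input, a ratio of 109 (74.9 to 166). It covered the last 180 bases of the mRNA, all 3′ UTR, in exon 6 of 6. The peak at chr14:66357901-66358125 had 3415 IP reads and 35 input reads, a ratio of 81.3 (58.4 to 117), over 137 coding bases of exon 5. The coding peak stood at 0.745 times the 3′ UTR peak (0.433 to 1.27), so a difference between them was not detectable with input counts this low. These were the highest and the next highest of the 8 coding-gene peaks on their chromosome strand, where the 6 peaks of other genes had ratios of 5.43 to 68.7 with a median of 13.4. In IP reads per 1000 bases the same peaks ranked only sixth and seventh of the 8, and in input reads they were the lowest. All 4 basic coding transcripts of Stmn4 hold both peaks. The coding stretch, shown because it comes from the most enriched gene of the set and lies at chr14:66357901-66358037 on the plus strand, was, with no base singled out:
Stmn4: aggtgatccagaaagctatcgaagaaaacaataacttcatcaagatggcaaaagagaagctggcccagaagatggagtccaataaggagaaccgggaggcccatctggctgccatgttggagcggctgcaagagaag
Its closest match in other transcripts was Stmn1, with 81.8% identity over 137 bases.

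Atat1, the alpha tubulin acetyltransferase, had 1 peak, at chr17:35900011-35900215, with 6428 reads in the Mov10 IP and 103 in the input and a ratio of 52.0 (42.8 to 63.8). This was the highest ratio of the 16 coding-gene peaks on its chromosome strand, where the 15 others had a median of 16.5 and reached at most 43.2. Its IP reads per 1000 bases were only the 11th highest of the 16, and its input reads were the lowest. All 205 bases were 3′ UTR in exon 10 of 10, ending 159 bases before the end of the mRNA. The exon belongs to 2 of 5 basic coding transcripts, and the peak lies within an intron of longer ones. An antisense gene, Gm16279, spans the peak with no exon in it.

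Crmp1, whose product binds tubulin and acts in semaphorin signalling, had 1 peak in its coding sequence and 1 in its 3′ UTR. The coding peak (chr5:37286426-37286630, 122 bases of exon 12 of 14) had 6085 reads in the Mov10 IP and 349 in the input, a ratio of 14.5 (13.0 to 16.2). The 3′ UTR peak (chr5:37291551-37291755, exon 14) had 6751 IP reads and 484 input reads, a ratio of 11.6 (10.6 to 12.8). The coding peak was 1.25 times as enriched as the 3′ UTR peak (1.08 to 1.44), with 0.901 times its IP reads and 0.721 times its input reads per 1000 bases. These values per 1000 bases count the whole peak. Of its 205 bases, the coding peak had 122 in the exon, while all 205 of the 3′ UTR peak were exonic. Heights per exonic base therefore differ from these. The 3′ UTR peak was the lowest of 8 coding-gene peaks on that chromosome strand in ratio and the second highest in IP reads per 1000 bases. The gene Evc overlaps it on the opposite strand with no exon there.

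The Tubb5 peak and Tubb3 peak 2 had the most input reads per 1000 bases of the 14 peaks, 4766 and 3995, and the lowest ratios. Tubb5 had 7430 reads in the Mov10 IP and 977 in the input at chr17:35835846-35836050, a ratio of 6.34 (5.93 to 6.78). Tubb3 had 3939 IP reads and 372 input reads at peak 1 (chr8:123420601-123420800), a ratio of 8.83 (7.93 to 9.84). At its peak 2 (chr8:123421001-123421200) it had 5459 IP reads and 799 input reads, a ratio of 5.70 (5.29 to 6.14). Peak 1 was 1.55 times as enriched as peak 2 (1.36 to 1.77), although they lie in the same exon 4, the last, and their exonic parts are wholly coding. Counted from the highest ratio, all 3 peaks lay in the lower part of their strands: rank 15 of 16 for Tubb5, and ranks 15 and 19 of 20 for Tubb3. The readthrough gene Gm20388 spans both Tubb3 peaks with no exon there.

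Tubb3 peak 1 and the Tubb5 peak lay over the same codons of the beta tubulin coding sequence. Each covered 194 coding bases, coding base 278 to 471, which begin at the start of exon 4 and run from codon 93 to codon 157. Aligned without gaps, they were 82.5% identical, with 34 differing bases, of which 26 were at the third position of a codon. The longest run of identical bases was 15. Over these same codons, Tubb3 was 1.39 times as enriched as Tubb5 (1.23 to 1.58), with 0.543 times its IP reads and 0.390 times its input reads per 1000 bases. The stretches are given because they allow the 2 mRNAs to be compared at 1 place, at chr8:123420607-123420800 on the plus strand and chr17:35835846-35836039 on the minus strand, with the bases that differ in capitals:
Tubb3: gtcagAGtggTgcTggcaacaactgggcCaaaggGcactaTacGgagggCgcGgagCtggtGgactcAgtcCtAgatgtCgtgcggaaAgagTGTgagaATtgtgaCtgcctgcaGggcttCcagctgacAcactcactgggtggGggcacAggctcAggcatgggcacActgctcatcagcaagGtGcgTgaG
Tubb5: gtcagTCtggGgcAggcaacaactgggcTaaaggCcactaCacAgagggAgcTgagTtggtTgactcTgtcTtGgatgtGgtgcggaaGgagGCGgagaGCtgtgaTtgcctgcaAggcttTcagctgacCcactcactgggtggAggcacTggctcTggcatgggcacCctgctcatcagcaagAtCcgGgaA
Reads with several alignments had been assigned to 1 place by the peak caller, so likeness to other genes bears on these counts. None of the 14 peaks had a match of 95% identity over 100 bases in a transcript of another gene, where 9.74% of the 657 peaks did. The closest was a processed pseudogene, Gm11892, with 91.8% identity over the 194 bases of Tubb5. For Tubb3 it was Tubb6, with 85.9% over 192 bases at peak 1 and 89.9% over 198 bases at peak 2. How many reads were reassigned among these genes was not tested.

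**Figure D4:**
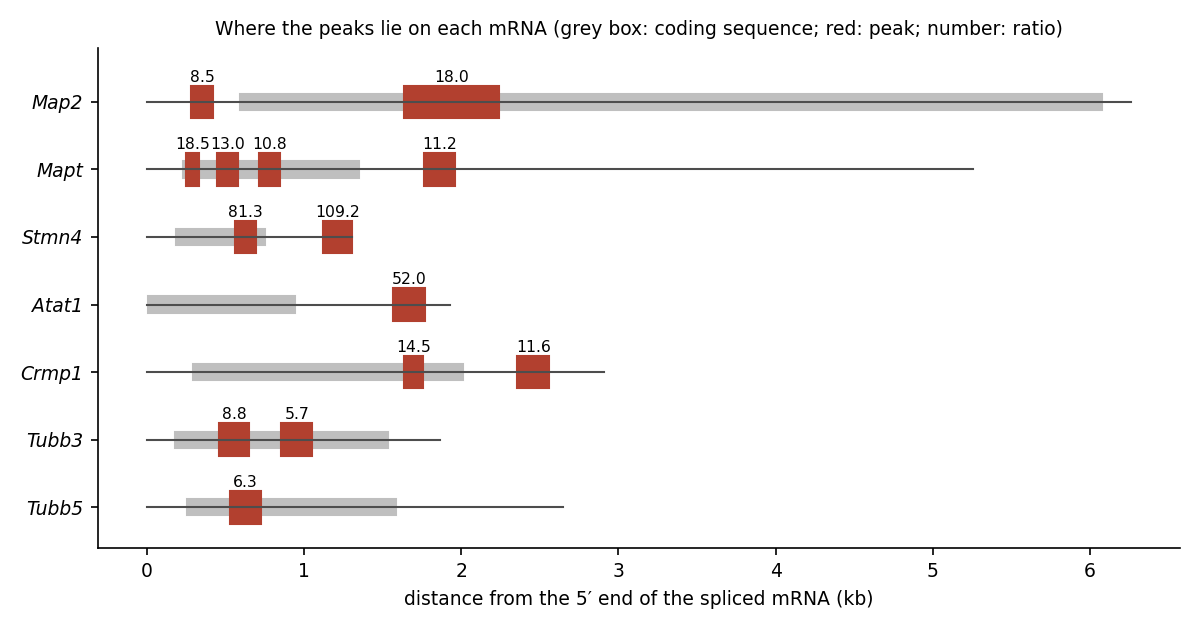
The 14 peaks (red) on the spliced mRNA of each gene, drawn by distance from its 5′ end in kb, with the coding sequence as a grey box and the enrichment ratio above each peak. Of the 14, 9 lie mainly in coding sequence, 4 in the 3′ UTR and 1 in the 5′ UTR, and the first peak of Tubb3 and that of Tubb5 start at the same coding base.

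Taken by place, 9 of the 14 peaks (64.3%) lay mainly in coding sequence, 4 (28.6%) in the 3′ UTR and 1 (7.14%) in the 5′ UTR. Over the 657 peaks these shares were 57.8%, 31.5% and 10.7%. The 9 coding peaks had a median ratio of 12.9 and ratios of 5.70 to 81.3, and the 5 UTR peaks a median of 11.6 and ratios of 8.46 to 109, so the ranges overlapped. The GC content of the exonic part ran from 43.2% (Map2, exon 7) to 67.7% (Mapt peak 2), with a median of 54.7% against 54.0% over the 657 peaks. On the sense strand, ATTTA occurred in 2 of the 14 exonic parts, those of the Atat1 peak and of the Stmn4 3′ UTR peak, where 14.0% of the 657 hold it. AATAAA, TGTANATA and a set of 4 GGG runs spaced by 1 to 7 bases occurred in 0 of 14, where 9.13%, 1.98% and 1.67% of the 657 hold them. A match of letters is a description and no sign of a factor, and none says only that the letters are not in the peak.

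Among 110 other genes of the same pathways, 9 had an exonic peak that passed the adjusted p (8.18%, where 1.83% of 21911 protein-coding genes did), and all 9 had an interval above 1 and 0 an interval below 1. The lists were drawn up with results of these data known, so the share is not independent evidence. The 21911 genes were also not matched to the listed genes in expression. Stmn1, the founding stathmin, was the most enriched of the 9, with 1914 reads in the Mov10 IP and 33 in the input and a ratio of 48.3 (34.3 to 70.4). It had as few input reads as Stmn4, the other stathmin with a peak. Of the CRMP genes, Dpysl3 had 2387 IP reads and 358 input reads, a ratio of 5.56 (4.97 to 6.23). Dpysl2 had 985 IP reads and 358 input reads, a ratio of 2.29 (2.03 to 2.60). Both lay below Crmp1, and their intervals did not overlap that of either Crmp1 peak.

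Of 8 alpha tubulins, Tuba1c had a passing peak, with 1795 reads in the Mov10 IP and 629 in the input and a ratio of 2.38 (2.171 to 2.609). The exonic part of that peak matched other transcripts at 95% identity or more, and its counts are uncertain for that reason. None of the other 6 beta tubulins had a listed peak. Map1lc3a, a light chain of the MAP1 family known for its role in autophagy, was the 1 passing gene of 16 structural MAPs and doublecortins. It had 5551 IP reads and 1010 input reads and a ratio of 4.58 (4.28 to 4.90). Of the 225 bases of that peak, 96 were exonic, mainly 5′ UTR in exon 1. Mapre2, which binds growing microtubule ends, was the 1 of 11 end-binding genes. At its peak of most IP reads it had 1579 IP reads and 98 input reads and a ratio of 13.4 (10.9 to 16.6). Of the 200 bases of that peak, 96 were exonic, and all 200 of its other peak were.

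Of 27 kinesin and dynein genes, 3 passed, and all 3 belong to the dynein motor or its activator dynactin. Genes of both kinds lay on strands with no listed peak and could not pass. These were Kif1a, Kif1b, Kif2a and Kif21a, and Dync1li1, Dctn2 and Dctn3. Kif3a lay on the chromosome strand of Mapt, where no listed peak passed. Counts this small do not set dynein genes apart from kinesin genes. Dynlrb1 had 5160 reads in the Mov10 IP and 443 in the input, a ratio of 9.71 (8.81 to 10.7). Dynll1 had 3027 IP reads and 674 input reads, a ratio of 3.74 (3.44 to 4.08). Dctn1, the large dynactin subunit, had 574 IP reads and 39 input reads at its peak of most IP reads, a ratio of 12.3 (8.87 to 17.4). Its other peaks had 511 IP reads and 19 input reads, a ratio of 22.4 (14.2 to 37.5), and 443 IP reads and 31 input reads, a ratio of 11.9 (8.27 to 17.7). None of 15 tubulin modification genes, 9 gamma tubulin and related genes, 6 severing genes or 5 tubulin folding genes had a passing peak. With 1.83% of all protein-coding genes passing, a count of 0 in groups this small sets none of them apart. Of these genes, Tubg1, Tubg2, Tubd1, Ttll6 and Tbcd lie on the chromosome strand of Mapt, where no listed peak passed. Each taken at its peak of most IP reads, the 9 genes had a median ratio of 5.55, and the 400 coding genes with a passing peak had one of 14.5.

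**Figure D5:**
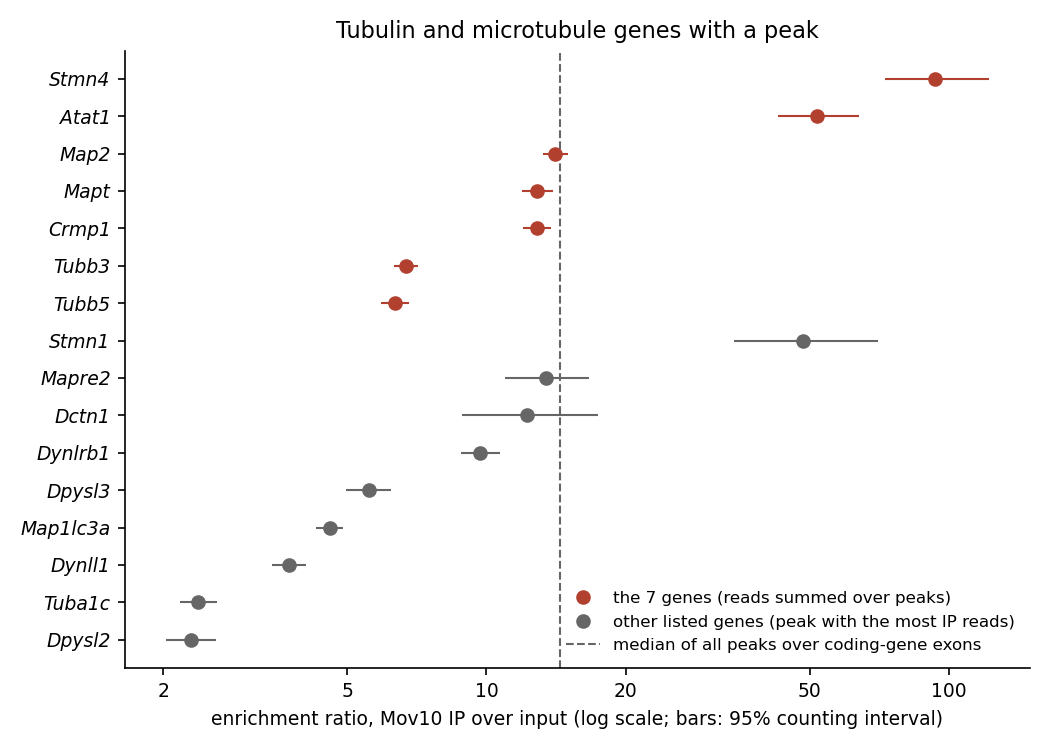
Enrichment ratio (log axis) with 95% counting intervals for the 7 genes, red, with reads summed over their peaks, and for the 9 other listed genes with a passing peak, grey, at their peak of most IP reads; the dashed line is the median of the 657 peaks. The stathmins Stmn4 and Stmn1 and the acetyltransferase Atat1 lie to the right of the line, and the tubulins Tubb3, Tubb5 and Tuba1c to its left.

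A gene without a peak was not shown to be unbound. The fewest IP reads in any listed peak differed between the 31 nuclear chromosome strands with a peak, with 226 on one and 20339 on another. Of the 110 genes, 30 lay on a chromosome strand with no peak in the list analysed here, among them the alpha tubulins Tuba1a and Tuba1b, the beta tubulins Tubb2a and Tubb2b, and Map1b. On the strand of Tubb4b and Stmn3 no listed peak had fewer than 13847 IP reads, more than any of the 14 member peaks held. On those of the members the fewest were 2192 (Mapt) to 5450 (Atat1 and Tubb5), so the high rank of the members in IP reads stands beside these floors, and how far the floors set it was not tested.

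By the reads of their highest peak, not scaled to peak length, the members were closest to genes of other kinds. The 7 members and the 9 other listed genes with a passing peak were few beside the 449 coding genes with an exonic peak. Neighbours of other kinds therefore do not set the members apart. The nearest gene to Crmp1 in log2 IP and log2 input reads was Rnf10, with 6755 reads in the Mov10 IP and 463 in the input (distance 0.064). Atat1 was nearest to Pdap1 (6376 IP and 96 input reads, distance 0.10), Mapt to Znhit1 (3062 and 136, 0.10) and Tubb3 to Vsnl1 (5341 and 738, 0.12). Map2 was nearest to Gnao1 (12246 and 623, 0.14) and Tubb5 to Sap18b (8076 and 902, 0.17). Stmn4 stood farthest from any other gene, with Npm1 as its nearest (2386 IP and 27 input reads, distance 0.57).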

How the data were processed

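RNA from the Mov10 IP and from the input, 1 library each, was analysed from the peak list the authors deposited. Per the labels, base calls were made with bcl2fastq 2.17.1.14 and reads were aligned with TopHat2 2.1.1 to mm10. The authors kept up to 2000 alignments per read, called peaks with RIPSeeker on each strand, and let the caller assign reads with several alignments to 1 place. The deposited values of each peak are read counts of both libraries, not scaled to depth, the caller's log odds scores, p-values, adjusted p-values and an empirical false discovery rate (eFDR); all were used as given.

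Counts were divided by the aligned reads given in the study's methods (Mov10 IP, 71522027; input, 59620379). Intervals of ratios and of ratios between peaks are exact conditional intervals. No p-value is given for any ratio, since there is 1 library per group. The intervals were checked on simulated counts drawn with counting error alone. That check bears on the computation and not on variation between libraries. Exons, coding sequence and sequences were taken from GENCODE M21, on the same assembly. RefSeq exons and a genome sequence were not used here, so the alternative with RefSeq exons took GENCODE transcripts matched to RefSeq, and the planned soft-masked share was not computed. Each gene is described on the basic coding transcript that holds most of its peak bases. Copies were sought with BLAST 2.17.0 in transcripts of other genes. Python 3.11.15, numpy 2.4.6, scipy 1.17.1 and matplotlib 3.10.9 were used. Alternatives varied the library totals, the pseudocount, the threshold, the share of a peak in exons, the copies and the unit (peak or gene).

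The genes named are the 7 members, each listed pathway gene with a passing peak, and for each member the gene nearest in log2 IP and input reads. Genes named as lacking a peak were chosen after the list had been read. The members and lists were chosen with earlier results of these data known.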

Additional observations from a re-analysis of the deposited data

How the results depend on the processing

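Division by uniquely aligned in place of aligned reads scaled every ratio by 0.613, by construction. The median ratio of the 14 peaks was then 7.52, against 12.3, and the summed ratios were 57.3 for Stmn4, 31.9 for Atat1, 8.64 for Map2, 7.90 for Mapt, 7.87 for Crmp1, 4.10 for Tubb3 and 3.89 for Tubb5; all 14 intervals stayed above 1. At an eFDR of 0.05 in place of the adjusted p, 0 of the 14 peaks passed, against 10, and 3 of the pathway genes, against 9; 248 of the 657 peaks passed it, and the eFDR was nearly constant within each chromosome strand that holds a member. Of the other 12 of 22 alternatives, 3 could not change anything, since no member peak had a copy, none had under 10 input reads, and the exons used were GENCODE's already. The remaining 9 moved no count by over 1.5 times and kept the median within its order-statistic interval, which is wide. Among these, the median was 11.6 over the 13 peaks at least 50% exonic and 12.9 with 1 value per gene. The counts of input reads limit Stmn4 most, with 27 and 35 reads. No paired analysis was possible because each group is 1 library.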
